A study of Mus musculus with 8 samples.

Results

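The colony-stimulating factor genes examined here encode the receptors Csf1r, Csf2ra, Csf2rb and Csf3r and the ligands Csf1 and Il34, 6 genes chosen by name from the 56832 rows of a gene expression table. All 6 had a row, and 5 passed a filter on low values (a mean of at least 10 normalized counts over all libraries), which kept 14428 genes. Il34 did not pass. Microglia were sorted from brains of young adult male 5xFAD mice, which carry mutant human amyloid precursor and presenilin transgenes, in both groups. The antibodies of the sort are not known here. Ethanol mice were injected intraperitoneally with 20% ethanol at 3 g/kg and saline mice with saline, on 5 days of each week for 4 weeks, and both were then left for 2 weeks. The study asked whether long exposure to alcohol altered the transcriptome of these cells, with 4 ethanol and 4 saline RNA-seq libraries, numbered 1 to 4 as in their titles. No mice without the transgenes, and no females, are among these libraries. The labels do not state that each library came from its own mouse, so the p-values measure the spread between libraries, which may be technical.

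Microglia, the resident macrophages of the brain, need the receptor tyrosine kinase CSF1R to survive and divide. CSF1R is activated by CSF1 and by IL-34, ligands that differ in sequence but bind the same receptor, and in the brain IL-34 is known mainly as a product of neurons. The receptors of CSF2 (GM-CSF) and CSF3 (G-CSF) belong instead to the class I cytokine receptors, which have no kinase of their own and signal through JAK kinases and STAT factors. CSF2 binds a chain of its own, encoded by Csf2ra, that pairs with the shared beta chain encoded by Csf2rb. The CSF3 receptor, encoded by Csf3r, is best known from neutrophils and their precursors.

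Libraries held 14271351 to 17231301 assigned reads. Microglial markers (10 genes, among them P2ry12 and Tmem119) made up 4.44 to 4.74% of reads in ethanol and 4.19 to 4.51% in saline libraries, ranges that overlap (two-sided exact permutation test, p = 0.0857, adjusted p = 0.429 over 9 marker lists). Without saline 3 they did not overlap, at an unadjusted exact p of 0.0286, the smallest that the remaining libraries can give. Markers of other brain and blood cells were scarce, at most 0.0939% of the reads of any library for neutrophils and 0.0593% for astrocytes. The highest values were 0.0213% for the oligodendrocyte lineage, 0.018% for border macrophages, 0.00758% for monocytes and 0.00455% for endothelial and mural cells. They were 0.00278% for neurons and 0.00024% for lymphocytes. Of the defining lymphocyte markers, Cd3e, Cd3d and Ms4a1 had 0 reads in all 8 libraries. In these bulk libraries fewer cells of a type and less RNA per cell cannot be told apart.

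None of the 5 tested genes was called different between ethanol and saline microglia (limma with Benjamini-Hochberg adjustment over all tested genes, threshold 0.05, adjusted p = 0.997 for each). In the same fit 0 of 14428 genes were called, a background of 0%, and 524 genes, 3.63%, had an unadjusted p under 0.05. Of the 5 genes, 0 had an unadjusted p under 0.05. Library names carry a number, 163, 164 or 165, that both groups share and whose meaning the labels do not give. With it as a covariate Csf2ra had an unadjusted p of 0.0459 (limma, log2 fold change -0.20, adjusted p = 0.926), the other 4 genes had unadjusted p-values of 0.260 to 0.951, and 770 genes of the table were under 0.05 with 0 called. On the recovered reads edgeR also called 0 genes, with 495 of the 14428 genes at an unadjusted p under 0.05. DESeq2 called 0 genes too, with 777 at an unadjusted p under 0.05. It was run without the filter, on the 26812 rows above 0, so its count is not comparable with the others. The 95% interval of the difference was narrow for Csf1r and Csf3r and wide for Csf1.

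**Figure D1:**
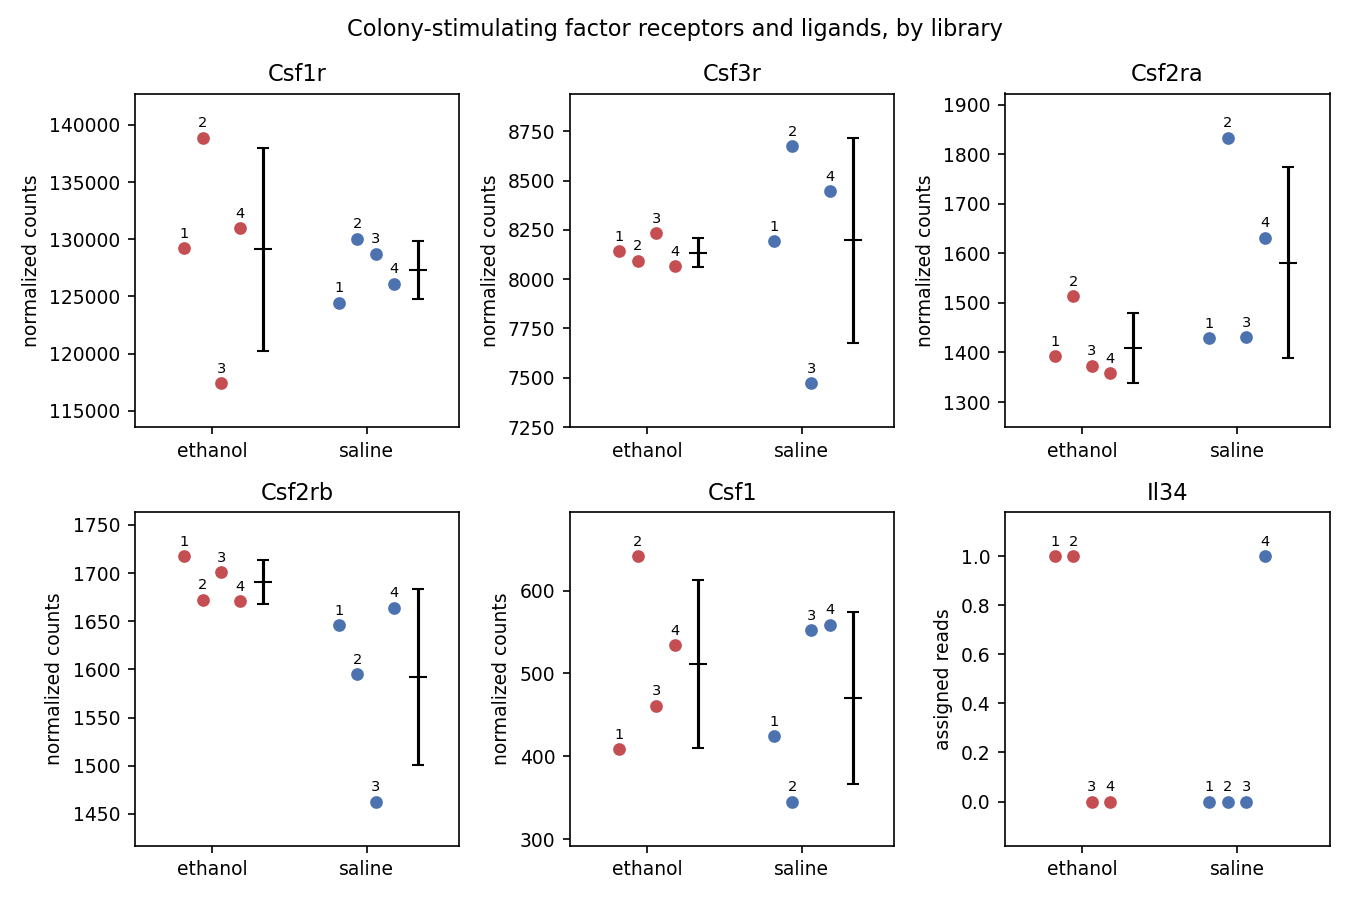
Normalized counts (assigned reads for Il34) of each gene in each library, with ethanol left of saline. Points are libraries with their numbers, and bars beside them, drawn for all genes but Il34, are the mean and SD of 4 libraries. Ethanol and saline libraries overlap in every panel except Csf2rb, where the lowest ethanol library, at 1671, lies just above the highest saline library, at 1664.

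The transcripts differed widely in abundance, whichever the treatment. Per kilobase of merged exons, the mean over the 8 libraries was 22200 normalized counts for Csf1r, 2260 for Csf3r, 521 for Csf2ra, 226 for Csf2rb and 92.9 for Csf1. No neighbours in this order came close to each other, since the lowest library of each gene lay above the highest library of the next (20300 against 2400 for Csf1r and Csf3r, 2070 against 639 for Csf3r and Csf2ra, 473 against 236 for Csf2ra and Csf2rb, 201 against 121 for Csf2rb and Csf1). Csf1r ranked 23 by this level among the tested genes with a length and Csf3r ranked 221. The order was the same with the length of the longest coding transcript in place of merged exons, where the levels were 27300, 2350, 809, 335 and 118. The lengths come from an annotation of an older build than the table's, so the levels are approximate.

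Csf1r, the kinase receptor, had 129219, 138877, 117436 and 130958 normalized counts in ethanol libraries 1 to 4. It had 124452, 130029, 128733 and 126097 in saline libraries 1 to 4. Ethanol 2 was the highest and ethanol 3 the lowest of all 8, and the saline libraries lay between them. The means were 129122 ± 8853 in ethanol and 127328 ± 2520 in saline (SD, n = 4 each), a log2 fold change of 0.018 (SE 0.052). The spread relative to the mean (coefficient of variation) was 6.86% in ethanol and 1.98% in saline libraries, where counting alone would give 0.282% and 0.274%. The pseudogene row Csf1r-ps held 13 reads over the ethanol and 20 over the saline libraries, so few of the reads of this family were assigned there.

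Csf3r, the CSF3 receptor, had 8142, 8092, 8233 and 8066 normalized counts in ethanol libraries 1 to 4 and 8192, 8676, 7473 and 8445 in saline libraries 1 to 4. All 4 ethanol libraries lay inside the range of the saline libraries. The means were 8133 ± 73.5 in ethanol and 8196 ± 521 in saline (SD, n = 4 each), or a fold change of 0.994 (95% interval 0.907 to 1.09, limma). The ethanol libraries varied by 0.904%, about what counting alone gives (1.12%), and the saline libraries by 6.36% against 1.08%. Whether the spread itself differed between the groups was not tested.

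Csf3r is a receptor of neutrophils, and neutrophil transcripts were present at low and uneven levels. The 12 neutrophil markers made up 0.0166, 0.0273, 0.0369 and 0.0691% of reads in ethanol libraries 1 to 4 and 0.0939, 0.0194, 0.0504 and 0.0179% in saline libraries 1 to 4. Of the 12 markers, 10 had a mean of at least 10 and none was at 0 throughout. The groups overlapped (two-sided exact permutation test, p = 0.686). The marker sum spanned 5.67-fold between libraries, while Csf3r spanned 1.16-fold. Saline 1, with the highest marker sum, had 8192 normalized counts of Csf3r, and ethanol 1, with the lowest, had 8142. The most abundant of the markers were Ngp, a granule protein gene, with means of 1943 normalized counts in ethanol and 2797 in saline, S100a8, a calprotectin subunit gene, with 1667 in ethanol and 1796 in saline, and Ltf, the lactoferrin gene, with 719.5 in ethanol and 861.8 in saline. S100a9, Camp, Ly6g, Elane and Mpo also had lower means in ethanol. The means of Retnlg (269.2 against 165.9), Mmp8 (133.8 against 106.1) and Mmp9 (75.51 against 72.26) were higher in ethanol than in saline. Among the scarcer markers, Cxcr2, a chemokine receptor of mature neutrophils, averaged 14.9 in each group. The part of neutrophil RNA in the Csf3r values was not tested.

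**Figure D2:**
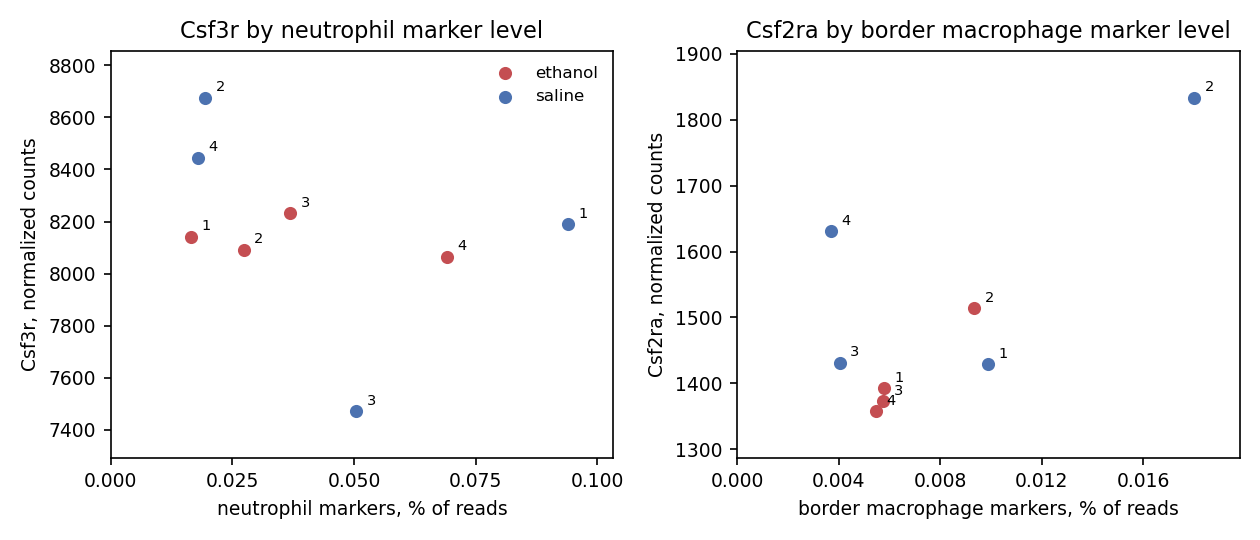
Csf3r normalized counts against neutrophil markers as a percent of reads (left) and Csf2ra normalized counts against border macrophage markers (right), each point a library with its number, ethanol in red and saline in blue. Csf3r stays between 7473 and 8676 while the neutrophil sum runs from 0.0166 to 0.0939%. The highest Csf2ra value in each group is in library 2, which also has the highest border macrophage sum of its group. The other ethanol libraries follow this order and the other saline libraries do not.

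Csf2ra, the chain that binds CSF2, had 1393, 1514, 1373 and 1358 normalized counts in ethanol libraries 1 to 4. In saline libraries 1 to 4 it had 1429, 1834, 1431 and 1631. Each ethanol library lay below the median of the saline libraries, but ethanol 2 exceeded saline 1 and saline 3, so the groups overlapped. The means were 1409 ± 71.1 in ethanol and 1581 ± 193 in saline (SD, n = 4 each), or a fold change of 0.895 (95% interval 0.776 to 1.03). The unadjusted limma p of 0.123 was the smallest of the 5 genes (adjusted p = 0.997). Without saline 2, the highest library, the log2 fold change was -0.086, against -0.16 with it. Within the numbers of the library names the log2 difference was -0.060 for 163, -0.17 for 164 and -0.34 for 165, each from 2 or 3 libraries. Border macrophage markers, from macrophages of the meninges and vessels, were highest in library 2 of each group, at 0.00935% of reads in ethanol 2 and 0.018% in saline 2. The order did not hold among the other saline libraries, since saline 1 had the second-highest sum, 0.00987%, with the lowest saline Csf2ra, and saline 4 had the lowest sum, 0.00371%, with the second-highest Csf2ra. It did hold among the ethanol libraries, where the sums were 0.00578, 0.00575 and 0.00548% in ethanol 1, 3 and 4, values close to each other. None of the 10 border macrophage markers was at 0 throughout, and the groups overlapped in the marker sum (exact permutation test, p = 0.686). The part of border macrophages in the Csf2ra values was not tested.

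Csf2rb, the shared beta chain, had 1717, 1672, 1701 and 1671 normalized counts in ethanol libraries 1 to 4 and 1646, 1595, 1463 and 1664 in saline libraries 1 to 4. Every ethanol library lay above every saline library, which was true of 1 of the 5 tested genes, while 1.12% of all tested genes had ethanol libraries wholly above and 2.32% did not overlap in either direction. The distance was small, since the lowest ethanol library exceeded the highest saline library by 6.86 normalized counts, or 0.412%, and counting alone gives a spread of 2.47% in ethanol and 2.44% in saline libraries. The separation also depended on the scaling. With a trimmed mean of M-values (TMM) the gap was 0.895%, but with scaling to library totals and with quantile normalization the groups overlapped, with gaps of -1.58% and -1.2%. The means were 1690 ± 22.7 in ethanol and 1592 ± 90.9 in saline (SD, n = 4 each), or a fold change of 1.06 (95% interval 0.943 to 1.20, limma adjusted p = 0.997). The unadjusted limma p was 0.298. An exact two-sided permutation test of this gene gave p = 0.0286 before any adjustment, the smallest that the 70 ways of dividing the libraries can give. Any gene whose groups do not overlap reaches that value, so the permutation test adds nothing to the separation described above.

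Mice have a close copy of this gene, Csf2rb2, which encodes a beta chain that serves IL-3 alone. It lies next to Csf2rb on chromosome 15, with 0 protein-coding genes between them in RefSeq. In GENCODE M21 (GRCm38) the coding sequences of the pair have 2691 bases for Csf2rb and 2637 for Csf2rb2, and 95.2% of their 2631 aligned bases were identical. The sequences printed here show how far reads can tell the genes apart. In the 60 coding bases where the pair differs most (bases 304 to 363 of Csf2rb, transcribed from the plus strand, and 307 to 366 of Csf2rb2, from the minus strand, counted from the start codon), capitals mark the 13 positions that differ:
Csf2rb: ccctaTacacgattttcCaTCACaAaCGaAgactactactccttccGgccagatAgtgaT
Csf2rb2: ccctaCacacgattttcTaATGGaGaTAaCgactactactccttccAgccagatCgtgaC
The longest run without a difference has 242 coding bases, and its first 150 bases, from base 2083 in either gene, are the same letters in both:
Csf2rb and Csf2rb2: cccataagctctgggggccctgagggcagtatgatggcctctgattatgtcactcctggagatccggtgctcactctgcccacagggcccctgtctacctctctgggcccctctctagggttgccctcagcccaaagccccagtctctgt
A read from that run alone cannot be assigned to either gene. Over the whole Csf2rb transcript, 18.4% of stretches of 50 bases and 3.47% of stretches of 150 bases also occurred exactly in a Csf2rb2 transcript. How the authors' counting treated such reads is not given in the sources used here, so the split between the genes is uncertain.

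Csf2rb2 had 645, 778, 710 and 768 normalized counts in ethanol libraries 1 to 4 and 756, 752, 526 and 632 in saline libraries 1 to 4. The groups overlapped, and saline 3, the lowest library for Csf2rb2, was also the lowest for Csf2rb. The fold change was 1.097 (95% interval 0.905 to 1.33, limma adjusted p = 0.997), or 0.13 on the log2 scale, and without saline 3 it was 0.024 on that scale. Counted together, Csf2rb and Csf2rb2 had 2363 to 2450 normalized counts in ethanol and 1989 to 2402 in saline libraries, ranges that overlap because saline 1 lay above ethanol 1 (two-sided exact permutation test, p = 0.0571). The ratio of Csf2rb2 to Csf2rb was 0.429 ± 0.0417 in ethanol and 0.418 ± 0.0561 in saline (SD, n = 4 each).

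**Figure D3:**
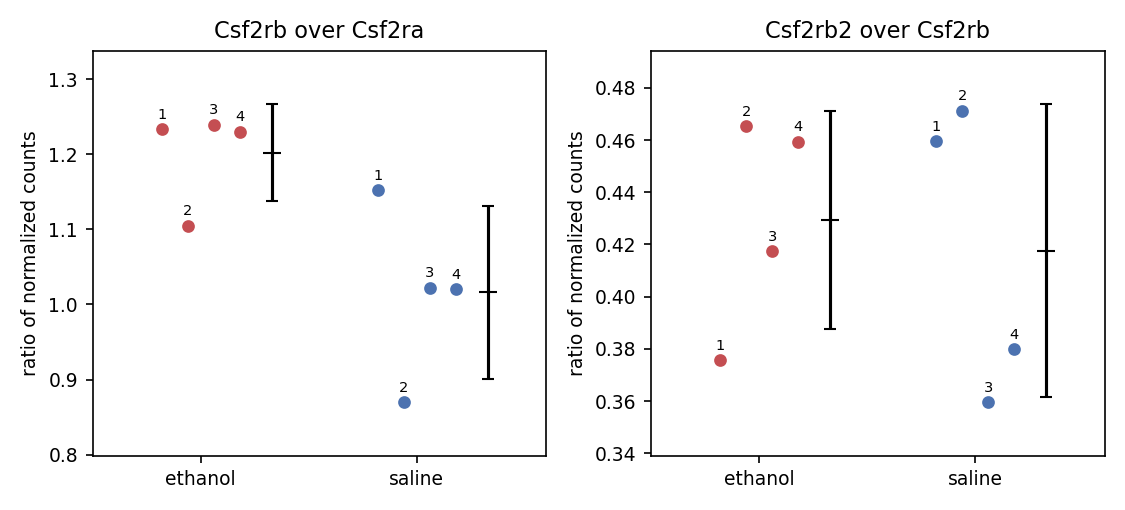
Ratios of normalized counts in each library for the beta chain over the ligand-binding chain (Csf2rb over Csf2ra, left) and for Csf2rb2 over Csf2rb (right), ethanol left of saline. Points are numbered libraries and bars are the mean and SD of 4 libraries. The left ratio is between 1.105 and 1.239 in ethanol and between 0.87 and 1.152 in saline libraries, and the right one overlaps throughout.

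The mean of Csf2ra was lower and that of Csf2rb higher in ethanol, and the balance of the 2 chains is given as a description, chosen after their values were seen. Normalized counts of Csf2rb over those of Csf2ra were 1.233, 1.105, 1.239 and 1.230 in ethanol libraries 1 to 4 and 1.152, 0.870, 1.022 and 1.020 in saline libraries 1 to 4. The groups overlapped in a single pair, ethanol 2 below saline 1. The ratio averaged 1.20 ± 0.0646 in ethanol and 1.02 ± 0.115 in saline (SD, n = 4 each). These ratios are not corrected for length and say nothing of the balance of the proteins.

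Csf1, the ligand of CSF1R that is also made by microglia, varied most among the tested genes of the family. It had 408, 642, 461 and 534 normalized counts in ethanol libraries 1 to 4. It had 424, 345, 553 and 559 in saline libraries 1 to 4. The highest value was in ethanol 2 and the lowest in saline 2, and the groups overlapped widely. The means were 511 ± 101 in ethanol and 470 ± 104 in saline (SD, n = 4 each), or a fold change of 1.09 (95% interval 0.846 to 1.41, limma adjusted p = 0.997). The difference had opposite signs in the libraries numbered 1 and 2, with a log2 difference of 0.42, and in those numbered 3 and 4, with -0.16. Counting alone gives a spread of 4.48% in ethanol and 4.50% in saline libraries, against 19.7% and 22% observed.

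Il34, the other ligand of CSF1R, was close to undetected. It had 1 read in each of ethanol 1 and ethanol 2 and 0 reads in ethanol 3 and ethanol 4, and it had 1 read in saline 4 and 0 in the other saline libraries. That makes 2 reads of 60854283 in ethanol, with an exact 95% Poisson upper limit of 7.22 reads, and 1 read of 65683951 in saline, with a limit of 5.57 reads. Both groups are under a floor of 3 counts, so no fold is given. Intervals and floors cover counting error only, since reads amplified without molecular identifiers are not independent molecules. Neuronal markers, from cells that express Il34, made up 0.00151 to 0.00226% of reads in ethanol and 0.00114 to 0.00278% in saline libraries, with none of the 10 at 0 throughout.

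**Figure D4:**
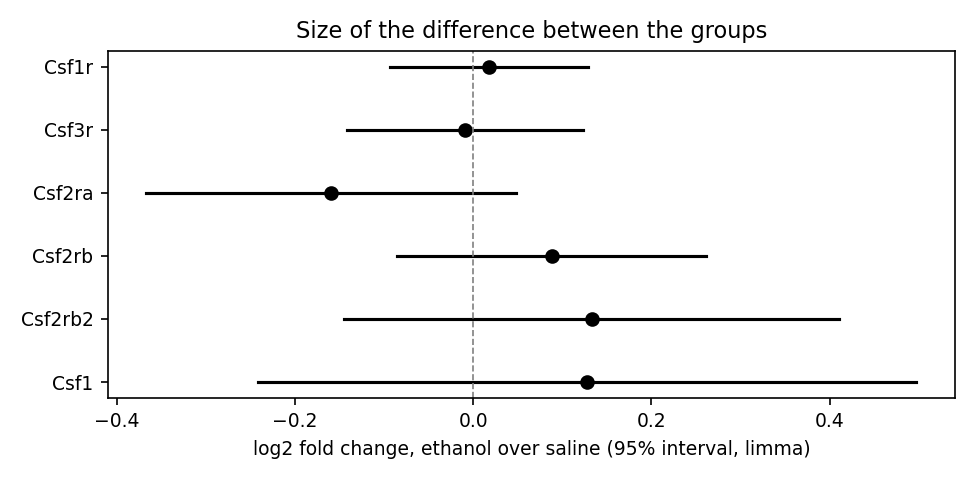
Log2 fold change, ethanol over saline, from limma on log2(value + 1), with 95% intervals, for the 5 tested genes and Csf2rb2. Every interval includes 0; the narrowest is that of Csf1r, from -0.093 to 0.13, and the widest that of Csf1, from -0.24 to 0.50.

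The within-group spread of Csf2rb, Csf3r and Csf1r was among the lowest of the tested genes. On the log2 scale the pooled within-group SD was 0.061 for Csf2rb, 0.067 for Csf3r and 0.074 for Csf1r, at percentiles 1.37, 1.97 and 2.90 of all tested genes. Csf2ra, at 0.13, was at percentile 18, and Csf1, at 0.31, was at percentile 59.6. Abundant genes have less counting error, and by mean level the same genes stood at percentiles 86.1 for Csf2rb, 98.5 for Csf3r, 100 for Csf1r, 84.4 for Csf2ra and 59.1 for Csf1.

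Some correlations within the family rested on 1 library. After group means were taken out, the correlation of log2 values over the 8 libraries was 0.80 between Csf2rb and Csf3r, but -0.37 without saline 3, the lowest library for both genes. Between Csf1r and its ligand gene Csf1 it was 0.34, and -0.035 without ethanol 2. It was 0.71 between Csf2ra and Csf3r (0.497 to 0.827 with 1 library left out at a time) and -0.51 between Csf3r and Csf1 (-0.753 to -0.213). The genes with the most similar pattern, among 5748 or 5749 genes with a mean of at least 500, were Myo1c, Tm9sf2 and Gnai3 for Csf1r (Pearson r of 0.992, 0.983 and 0.981) and Rbbp6, Rb1 and Galc for Csf3r (0.989, 0.981 and 0.963). For Csf2rb they were Tmed5, Wsb1 and Cd2ap (0.976, 0.974 and 0.965). For Csf2ra they were Iqce, Atf6 and Nf2 (0.951, 0.948 and 0.945), and for Csf1 they were Trim23, Tcea1 and Slc29a1 (0.951, 0.949 and 0.940). These values describe 8 libraries that share an RNA preparation and a size factor across genes, and they carry no p. The most similar genes are the highest of 5748 or 5749 correlations, so picking alone gives high values. The level that unrelated genes would reach was not estimated.

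The remaining cytokines of the family were absent or nearly so. Among the listed relatives, Csf2, the gene of GM-CSF, had 0 reads in all 8 libraries, as did Il3, Il5 and Il5ra, the IL-5 receptor chain. Csf3, the gene of G-CSF, had 5 reads, all of them in ethanol 1, and 0 in the 4 saline libraries, where a count of 0 among 65683951 reads is under the floor of 3 counts, a one-sided limit unlike the two-sided ones given for Il34. Of the 7 listed relatives 2 were tested, Csf2rb2 and Il3ra, and both had a positive fold change. Il3ra, the alpha chain of the IL-3 receptor, had 21.7 ± 9.15 normalized counts in ethanol and 17.9 ± 8.47 in saline (SD, n = 4 each). The receptor chains for CSF2 and CSF3 were therefore measured in libraries where transcripts of their ligands were not detectable at this depth, apart from the 5 reads of Csf3.

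Genes that act with these receptors were described from 8 lists with 113 genes in all, of which 102 were tested. None of them was called (limma, adjusted over all tested genes). At an unadjusted p under 0.05 there was 1 higher and there were 2 lower, together 2.94% of the 102, against 1.70% higher and 1.93% lower among all tested genes. Of the 2 lower genes, Pdgfrb passed the filter only through its saline libraries. The median log2 fold change was 0.0089 over these genes and -0.0055 over all tested genes.

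Of the 35 genes of CSF1R proximal signalling, all tested, 17 had a positive and 18 a negative fold change, with a median of -0.0042. Gab3, an adaptor of the GAB family that acts downstream of CSF1R in macrophages, had 112 ± 28.04 normalized counts in ethanol and 164 ± 14.8 in saline (SD, n = 4 each), or a fold change of 0.672 (95% interval 0.479 to 0.941). Its ethanol libraries, at 137, 127, 73.2 and 112, all lay below its saline libraries, at 149, 173, 154 and 180, as in 1.20% of all tested genes, and it was not called (unadjusted p = 0.0236, adjusted p = 0.997, limma). Gab2, a second adaptor of that family, had the smallest p on the higher side, with 880 ± 33.4 in ethanol and 772 ± 94.6 in saline, a fold of 1.15 (0.973 to 1.35). The most abundant genes of the list were Tyrobp, the adaptor DAP12, with a mean of 18388, and Inpp5d, the lipid phosphatase SHIP1, with 16955 ± 1115 in ethanol and 16554 ± 745 in saline, a fold of 1.02 (0.936 to 1.12).

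Among 19 transcription factors that act on Csf1r or downstream of it, 10 had positive and 9 negative fold changes, with a median of 0.0052. Of the negative ones, Fos passed the filter only through its saline group (1.52 ± 1.92 in ethanol, 45.4 ± 90.7 in saline). Elk3, an ETS factor of the ternary complex, had 2352, 2442, 2275 and 2229 normalized counts in ethanol libraries 1 to 4 and 2182, 2152, 2044 and 1854 in saline libraries 1 to 4. All ethanol libraries lay above all saline libraries, as in 1.12% of all tested genes. The fold change was 1.13 (95% interval 1.00 to 1.27), and the gene was not called (unadjusted p = 0.0434, adjusted p = 0.997, limma). Cebpa, a C/EBP factor of myeloid development, had 1815 ± 249 in ethanol and 2115 ± 252 in saline (SD, n = 4 each), a fold of 0.856 (0.730 to 1.00). Irf8, a factor of the macrophage lineage, had 8365 ± 129 in ethanol and 8800 ± 229 in saline (SD, n = 4 each), a fold of 0.951 (0.875 to 1.03).

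**Figure D5:**
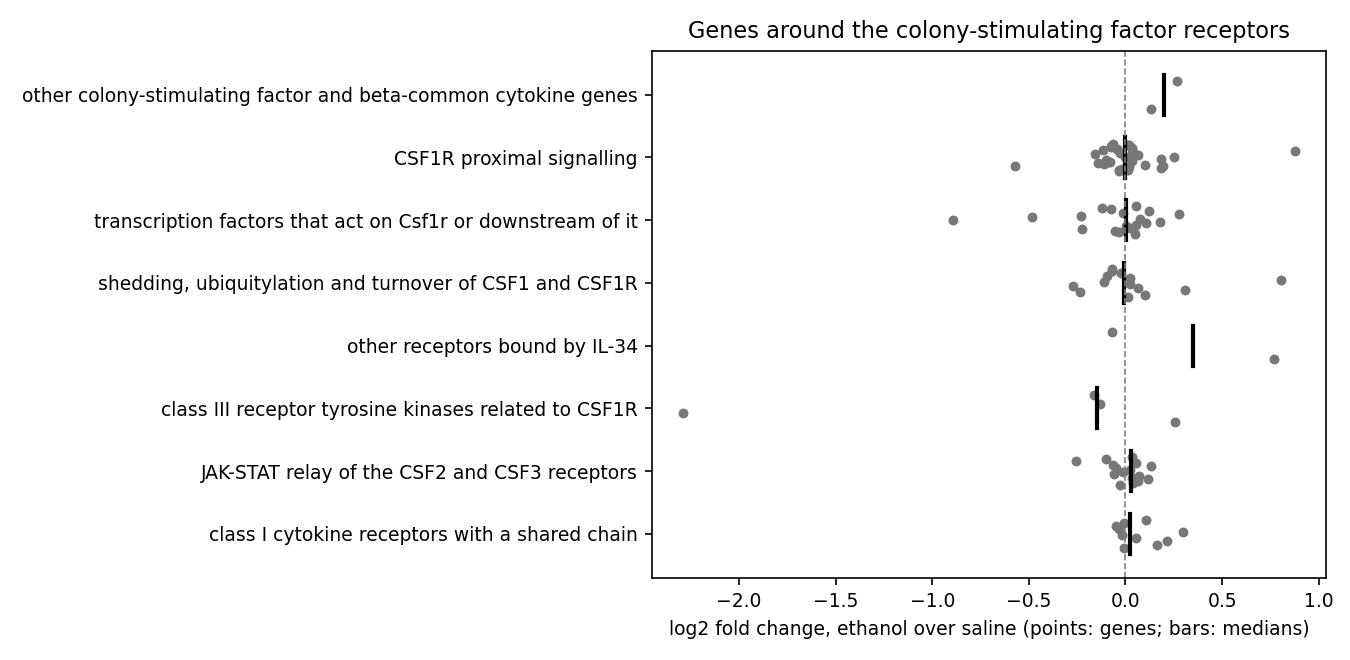
Log2 fold change, ethanol over saline, of every tested gene in 8 lists around the colony-stimulating factor receptors (points), with the median of each list (bars). The points farthest to the left are Pdgfrb at -2.29 and Fos at -0.89, genes that averaged 12.03 and 23.4 normalized counts. Both passed the filter only through saline libraries, where Fos ran from 0 to 181, against at most 4.01 in ethanol. Of the 102 genes, 0 was called.

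The proteases and sorting proteins that shed or degrade CSF1 and CSF1R numbered 14, with 7 positive and 7 negative fold changes and a median of -0.0054. Adam10, a membrane sheddase, had 9278 ± 524 normalized counts in ethanol and 8651 ± 351 in saline (SD, n = 4 each), a fold of 1.07 (0.978 to 1.18), and Ncstn, a gamma-secretase subunit, had a fold of 1.02 (0.915 to 1.13). The iRhom genes, whose products carry ADAM17 to the cell surface, had folds of 1.24 for Rhbdf2 (0.962 to 1.59) and 0.850 for Rhbdf1 (0.676 to 1.07). In the JAK-STAT list 16 of 17 genes were tested, with 9 positive and 7 negative fold changes and a median of 0.028. Mcl1 and Bcl2l1, which encode survival proteins of the BCL-2 family, had folds of 0.958 (0.869 to 1.05) and 1.096 (0.958 to 1.26). Jak1 had a fold of 0.981 (0.886 to 1.08), and the serine kinase gene Pim2, a STAT5 target, 0.836 (0.640 to 1.09).

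Other class I cytokine receptors had 5 positive and 5 negative fold changes among 10 tested genes, with a median of 0.023. Il6st, the shared chain gp130 of the IL-6 family, had 8567 ± 764 normalized counts in ethanol and 7646 ± 662 in saline (SD, n = 4 each), a fold of 1.12 (0.998 to 1.26). Il6ra, the chain that binds IL-6, had a fold of 0.994 (0.902 to 1.09), and Il7r, the IL-7 receptor chain, 0.967 (0.812 to 1.15). Of the other proteins reported to bind IL-34, the phosphatase gene Ptprz1 had 49.9 ± 20.8 in ethanol and 32.3 ± 24.7 in saline, a fold of 1.70 (0.835 to 3.47), Trem2 had a mean of 23093, and Sdc1 had 0 reads, so that 2 of the 3 genes of that list were tested, 1 with a positive and 1 with a negative fold change.

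The kinases closest to CSF1R in structure were scarce, and of 4 tested genes in their list, ligands included, 1 had a positive and 3 had a negative fold change. Kit and Pdgfra did not pass the filter. Flt3 averaged 46.8 ± 17.0 normalized counts in ethanol and 40.0 ± 15.1 in saline (SD, n = 4 each). Pdgfrb, a pericyte gene named after its values were seen, had 0 to 9.02 in ethanol and 18.3 to 21.2 in saline, without overlap (limma, unadjusted p = 0.0103, adjusted p = 0.997), as in 1.20% of all tested genes. Its overall mean of 12.03 passed the filter only through the saline libraries, with means of 4.54 in ethanol and 19.5 in saline. Neither the p nor the separation of Pdgfrb is therefore independent of the filter, and no conclusion is drawn from them. Acta2, a smooth muscle and mural cell gene, had 2.82 ± 1.69 in ethanol and 14.5 ± 7.78 in saline (SD, n = 4 each), with ranges that overlapped, and did not pass the filter. The mural genes Vtn and Rgs5 had 0 reads in all libraries, and Kcnj8 had 5 reads in ethanol and 0 in saline. Endothelial and mural markers as a whole, most of them reads of Pecam1 and Kdr, made up 0.00385 to 0.00455% of reads in ethanol and 0.00356 to 0.00414% in saline libraries. The part of mural cells in the Pdgfrb values was not tested. The kinase ligand genes Kitl and Flt3l had folds of 0.911 (0.695 to 1.20) and 0.892 (0.520 to 1.53).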

How the data were processed

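The authors deposited 1 table with a signal per gene, by its name DESeq2-normalized counts, which are reads divided by a size factor for each library. The submitters' processing notes name build GRCm39, STAR 2.7.9a, featureCounts 2.0.1, Salmon 1.5.2 and DESeq2, with R 4.2.2. Neither their order nor their settings nor the annotation is known from the sources used here. Columns were matched to samples by library name. Dividing a library by its smallest non-zero value returned whole reads for 100% of non-zero values (tolerance 1e-06).

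The log2 of each value plus 1 was tested with limma 3.58.1 (intensity trend, R 4.3.3), two-sided, on genes with a mean of at least 10. Fold changes on this scale understate changes of low genes. Alternatives were edgeR 4.0.16, DESeq2 1.42.0 or voom on recovered reads, other pseudocounts, filters, scalings and covariates, and leaving out each library.

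The genes and lists were chosen with earlier results of these data known. Named genes were the family, Csf2, Csf3, Csf2rb2, the 2 highest genes and the smallest unadjusted p in each direction per list (mean of at least 50), and, for each family member with a mean of at least 100, the 3 most similar genes among those with a mean of at least 500, numbered gene models left out. A gene that this rule names is not reported here. Sample numbers were not taken as pairs. Nextera XT preparation, named in the labels, keeps no strand, so overlapping antisense genes cannot be separated.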

Additional observations from a re-analysis of the deposited data

Results flagged for a closer look

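Among 86 groups of 4 libraries examined for a value far from the other 3, 5 had such a value. For continuous values chance flags about 1 group in 20. A lone value above 0 beside 3 libraries at 0 is always flagged, as for Il34 and Csf3, so the count cannot be set against that rate. Il34 had 0.908 normalized counts in saline 4, which is 1 read, and 0 in the other saline libraries. Csf3 had 5.43 normalized counts in ethanol 1, which is 5 reads, and 0 in the other ethanol libraries. Il3ra had 30.6 normalized counts in saline 3, against 12.9 to 14.5 in the other saline libraries. Flt3l had 28.5 normalized counts in saline 3, against 72.1 to 80.8 in the other saline libraries. Border macrophage markers made up 0.00935% of reads in ethanol 2, against 0.00548 to 0.00578% in the other ethanol libraries.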

How the results depend on the processing

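No alternative called any of the 5 tested family genes, or any gene of the table (0 genes in every setting run). Without the filter on low values 999 of 26812 genes had an unadjusted p under 0.05 (limma), against 524 of 14428 with it. Csf2ra kept a negative and Csf2rb a positive log2 fold change in all 20 settings, from -0.21 to -0.086 and from 0.048 to 0.11. Csf1r turned to -0.046 under quantile normalization. Leaving out 1 library at a time gave log2 fold changes of -0.018 to 0.063 for Csf1r, -0.053 to 0.019 for Csf3r and -0.011 to 0.23 for Csf1. The same omissions gave -0.053 to 0.018 for Il6ra, -0.13 to 0.0085 for Il7r, -0.0089 to 0.065 for Inpp5d, -0.062 to 0.0079 for Jak1, -0.24 to 0.048 for Kitl, -0.016 to 0.061 for Ncstn and -0.13 to 0.021 for Tyrobp. No sign turned for Csf2rb2 (0.024 to 0.20), Cebpa (-0.29 to -0.13), Il3ra (0.031 to 0.55), Flt3l (-0.52 to -0.026), Pim2 (-0.39 to -0.099) or Bcl2l1 (0.052 to 0.20), but their sizes moved by over 1.5 times. These are not all, since sizes also moved for Mcl1 (-0.10 to -0.021), Trem2 (-0.093 to -0.034), Gab2 (0.11 to 0.24) and Il6st (0.10 to 0.22), among others. Correlations ranged from -0.37 to 0.973 for Csf2rb with Csf3r and from -0.035 to 0.622 for Csf1r with Csf1, omissions added after seeing the data, and those of the most similar genes from 0.748 for Galc with Csf3r upwards. The most similar genes were picked on the same libraries, so their ranges are no independent check. Marker sums, as differences in percent of reads, ranged from 0.162 to 0.288 for microglia, -0.0013 to 0.00479 for astrocytes, -0.00404 to 0.000718 for border macrophages, -0.000991 to 0.000571 for monocytes, -0.000315 to 0.000231 for neurons, -0.0185 to 0.00822 for neutrophils and -0.000404 to 0.000615 for the oligodendrocyte lineage. The gap of Csf2rb between the groups, 0.412%, became an overlap of -1.58% with scaling to library totals and -1.2% with quantile normalization, alternatives chosen after seeing the data. The cause of these turns was not tested.

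With the sample number as a replicate block, limma called 0 genes and 645 had an unadjusted p under 0.05. Log2 fold changes under the block were 0.018 for Csf1r, -0.16 for Csf2ra, 0.088 for Csf2rb, -0.0089 for Csf3r and 0.13 for Csf1, and the block changed no call. After group means were taken out of the log2 values, same-numbered libraries had correlations of 0.03, 0.06, 0.08 and 0.01. Not every library correlated best with its own number. Ethanol and saline libraries correlated positively within numbers 1 and 2 (up to 0.137) and within 3 and 4 (up to 0.0909). Between these sets every correlation was negative (down to -0.105). Taking out group means makes the values of each gene sum to 0 within a group. Positive correlations with some libraries therefore largely force negative ones with others, and the negative ones are no separate evidence of sets. With the sets as a term limma called 0 genes, and 682 had an unadjusted p under 0.05. What the sets stand for is not known. Depth limits Il34, Csf2 and Csf3, where a few reads are all that was assigned.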
